A study of Mus musculus with 4 samples.

Results

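The ABC transporter genes were described here in sorted cells of mouse tumours. A gene was a member when its name in the scanner files was Abc followed by a subfamily letter from a to g and a number, with or without a final letter. Of the genes on the array, 50 had such a name, on 111 probes. A total of 35 of them passed a filter on low values, which asked for a signal flagged well above background on 2 or more arrays. It left 23520 features in all, and for 32 of the 35 members the flag was set on all 4 arrays. The brightest probe stood for each gene. The other 15 members are given last, without a difference.

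ABC transporters are membrane proteins that bind and split ATP to move a substrate across a membrane. Subfamilies B, C and G hold the pumps that export cancer drugs, dyes and conjugated metabolites. Subfamily A and part of G move cholesterol and phospholipids, part of B works in mitochondria, and D serves peroxisomes. Subfamilies E and F keep the ATP-binding domains but have no membrane span and act on ribosomes and translation. Drug efflux by such pumps is one trait by which stem-like tumour cells have been sorted, and high aldehyde dehydrogenase (ALDH) activity is another.

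The 4T1 line is a mammary carcinoma of the mouse, and its cells had been implanted in BALB/C mice that received no treatment. Cells of the tumours had been sorted with the ALDEFLUOR reagent, which ALDH turns into a fluorescent product, into fractions of high activity, labelled ALDH(+), and of low activity, labelled ALDH(-). Tumours were taken at zeitgeber times ZT12 and ZT0, hours counted from lights on. The groups were ALDH-high cells at ZT12, ALDH-low cells at ZT12, ALDH-high cells at ZT0 and ALDH-low cells at ZT0, with 1 array each. The labels do not state how many mice gave a fraction. There is thus no replicate check of any difference, and a member is counted as higher or lower when it differed at least 2-fold (1 log2 unit). Bulk RNA of this kind cannot tell fewer cells of a type from less RNA per cell.

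Levels are log2 processed signals relative to the 75th percentile of the array, so that 0 is a spot at that percentile. The percentile was a signal of 156 for ALDH-high cells at ZT12, 459 for ALDH-low cells at ZT12, 301 for ALDH-high cells at ZT0 and 214 for ALDH-low cells at ZT0. Between 55.8% and 60.6% of spots were well above background on an array and none was saturated. Levels of different genes come from different probes and are not set against each other.

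The arrays did not pair by their arm labels. Across 23520 features, ALDH-high cells at ZT12 correlated at 0.979 with ALDH-low cells at ZT0, which share array position 1_1 on their slides, and ALDH-high cells at ZT0 correlated at 0.964 with ALDH-low cells at ZT12, which share position 1_2. The correlation was 0.864 between the ALDH-high arrays and 0.877 between the ALDH-low arrays. Over the 35 members the same order held, with 0.970 and 0.939 for the arrays of a shared position against 0.706 for the ALDH-high arrays and 0.819 for the ALDH-low arrays. Across features the ALDH difference at ZT12 correlated at -0.746 with that at ZT0, and across the members at -0.785. These are descriptions across genes of 4 arrays. Within a time, arm and array position cannot be told apart, and time cannot be told apart from slide, since both ZT12 arrays lie on one slide and both ZT0 arrays on the other. A reversal of the ALDH difference between the times likewise cannot be told apart from arm labels exchanged at 1 of the times, which bears on every ALDH difference below.

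Markers of several other cell types differed between the arrays, and their part in the values below was not tested. The summed red cell, B-cell and T- and NK-cell lists were higher at each time on the array at position 1_1. The summed neutrophil list was higher in ALDH-high cells at both times, but most of its markers reversed between the times. Of its 10 markers, 6 were at least 2-fold lower and 2 higher in ALDH-high cells at ZT12. At ZT0, 7 were higher and 0 lower. The summed epithelial list was close between the arms at ZT12. Red cell lineage markers summed to 290 times the 75th percentile of the array in ALDH-high cells and 3.79 times in ALDH-low cells at ZT12, and to 3.42 times in ALDH-high cells and 866 times in ALDH-low cells at ZT0. B-cell markers summed to 36.8 in ALDH-high cells and 1.48 in ALDH-low cells at ZT12, and to 5.03 in ALDH-high cells and 28.2 in ALDH-low cells at ZT0. T- and NK-cell markers gave 47.8 in ALDH-high cells and 4.22 in ALDH-low cells at ZT12, and 16.6 in ALDH-high cells and 37.4 in ALDH-low cells at ZT0. Neutrophil markers were abundant on every array, at 3113 in ALDH-high cells and 2092 in ALDH-low cells at ZT12, and at 3531 in ALDH-high cells and 2283 in ALDH-low cells at ZT0. Tumour epithelial markers summed to 95.7 in ALDH-high cells and 86.9 in ALDH-low cells at ZT12, and to 12.1 in ALDH-high cells and 198 in ALDH-low cells at ZT0, where 11 of 11 were at least 2-fold lower in ALDH-high cells. Klf1, Gp5, Cdh5, Tek, Tie1 and Cldn5 were among the markers that did not pass the filter. The ALDH gene Aldh1a1 itself differed by 1.38 at ZT12 and by -1.65 at ZT0 on the log2 scale.

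At ZT12, 8 of 35 ABC genes were at least 2-fold higher in ALDH-high than in ALDH-low cells, when 32.2% of all features were, and 7 were at least 2-fold lower, when 17.9% of all features were. The median difference of the members was 0.18, against 0.30 over all features. At ZT0, 8 ABC genes were at least 2-fold higher in ALDH-high cells, against 20.5% of all features, and 13 were at least 2-fold lower, against 31.5%. Their median was -0.30 and that of all features -0.32. Scaled to the median of each array in place of its 75th percentile, the split was 5 higher and 15 lower at ZT12, and 14 higher and 8 lower at ZT0. That scaling moved the median over all features to -0.57 at ZT12 and 0.17 at ZT0, so that counts by direction rest on the scaling. By construction it leaves the gap between the median of the members and that of all features as it was, -0.11 at ZT12 and 0.02 at ZT0.

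No ABC gene was 2-fold higher in ALDH-high cells at both times, nor 2-fold lower at both times. Over all features, 0.166% were higher at both times and 0.357% were lower at both. Opposite signs at the times were seen for 30 of 35 ABC genes, against 84.2% of all features. The reversal exceeded 2-fold on both sides for 12 members. Abca5, Abca8b, Abcb1a, Abcf1, Abcg3 and Abcg4 were higher at ZT12 and lower at ZT0 in ALDH-high cells, a pattern of 20.4% of all features. Abca1, Abca13, Abca7, Abcc4, Abcd2 and Abcg1 were lower at ZT12 and higher at ZT0, as were 15% of all features.

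**Figure D1:**
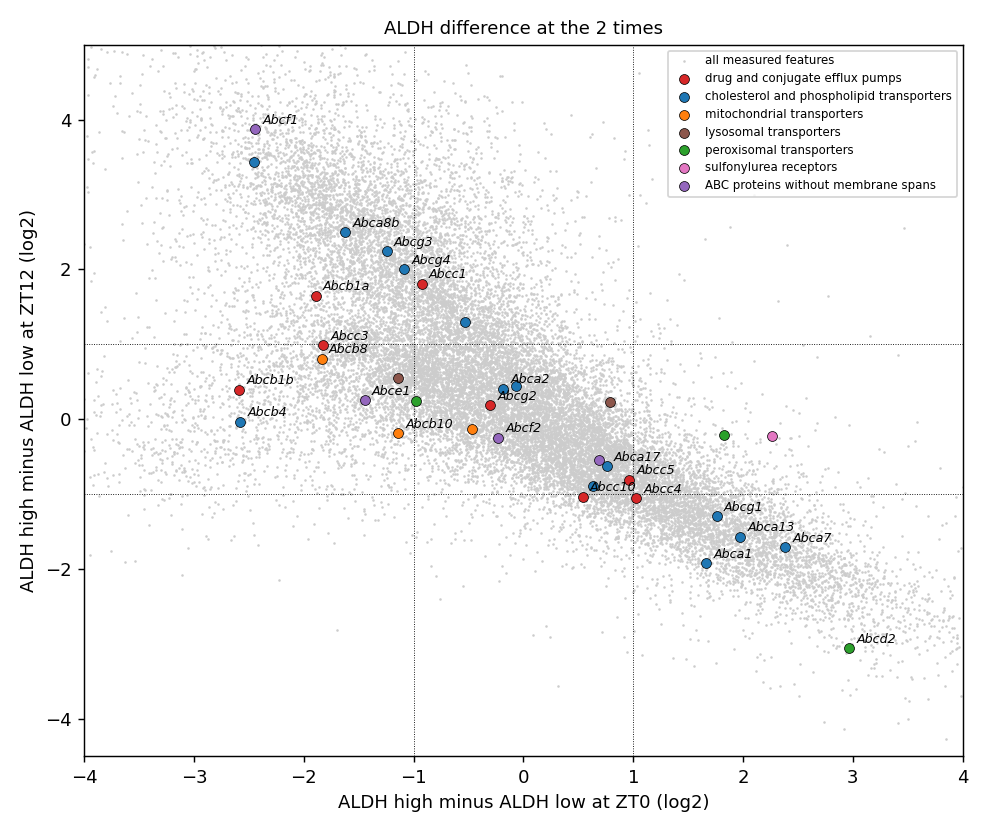
The ALDH difference of each feature at ZT0 (x axis) and at ZT12 (y axis), both as log2 of ALDH-high over ALDH-low cells with 1 array a group; coloured points are the 35 ABC genes by role, grey points all measured features, and dotted lines mark 2-fold. All 35 ABC genes lie inside the axes, 12 of them past 2-fold in opposite directions at the times and none past 2-fold in the same direction.

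Among the drug and conjugate efflux pumps, 8 of 12 members passed the filter, and all 8 were flagged well above background on every array. At ZT12, 2 of the 8 were at least 2-fold higher in ALDH-high cells (Abcb1a and Abcc1) and 2 were lower (Abcc10 and Abcc4), against 32.2% and 17.9% of all features. At ZT0, 1 was higher (Abcc4) and 3 were lower (Abcb1a, Abcb1b and Abcc3), against 20.5% and 31.5%. With 8 genes, nothing particular to the pumps is read from these counts.

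Abcb1a encodes one of the mouse P-glycoproteins, the broad drug pumps of the plasma membrane. Its level was -1.43 in ALDH-high cells and -3.08 in ALDH-low cells at ZT12, and -3.28 in ALDH-high cells and -1.39 in ALDH-low cells at ZT0. The ALDH-high array at ZT12 and the ALDH-low array at ZT0 were the high ones, at nearly the same level. The difference was 3.13-fold higher in ALDH-high cells at ZT12 and 3.71-fold lower at ZT0. A probe elsewhere in the gene gave the same signs, 2.32 at ZT12 and -1.88 at ZT0 on the log2 scale.

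Abcb1b, the other P-glycoprotein gene of the mouse, had one low array. It was at -0.22 in ALDH-high cells and -0.62 in ALDH-low cells at ZT12, and at -2.37 in ALDH-high cells and 0.22 in ALDH-low cells at ZT0. Only ALDH-high cells at ZT0 stood apart, 6.01-fold below ALDH-low cells of the same time, while the difference at ZT12 was 1.32-fold. Both genes are near copies on chromosome 5 (probes at chr5:8748075-8748134 for Abcb1a and chr5:8865925-8865984 for Abcb1b in mm9, plus strand), and binding of one RNA to the probe of the other was not tested. Abcb4, the neighbouring gene for the phospholipid floppase of bile (probe at chr5:8959108-8959167), gave the same picture with 0.28 in ALDH-high cells and 0.31 in ALDH-low cells at ZT12, against -2.15 in ALDH-high cells and 0.43 in ALDH-low cells at ZT0. Epithelial markers were also lowest in ALDH-high cells at ZT0, and their part in these values was not tested.

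Abcg2 encodes the half-transporter whose dye export defines the side population of stem-like cells. Read by 1 probe at chr6:58642312-58642371 (mm9, plus strand), it varied little. Its level was -0.93 in ALDH-high cells and -1.12 in ALDH-low cells at ZT12, and -0.97 in ALDH-high cells and -0.67 in ALDH-low cells at ZT0. The differences of 0.18 at ZT12 and -0.30 at ZT0 stayed under 2-fold, and the 4 arrays lay within 0.44 log2 units of each other.

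Abcc1, the exporter of glutathione conjugates and leukotrienes, was read differently by its probes. Its brightest probe, on an Ensembl transcript, was at 1.07 in ALDH-high cells and -0.73 in ALDH-low cells at ZT12, and at -0.06 in ALDH-high cells and 0.87 in ALDH-low cells at ZT0. Its probe on the RefSeq mRNA was at 0.37 in ALDH-high cells and 0.45 in ALDH-low cells at ZT12, and at -0.61 in ALDH-high cells and 0.58 in ALDH-low cells at ZT0. The ZT12 difference of 1.81 on the brightest probe was -0.07 on the other, so the count of 2 pumps higher at ZT12 holds Abcc1 only on its Ensembl probe. At ZT0 the probes agreed in sign, with -0.92 and -1.19. Both 60-base probes are on the plus strand, the first at chr16:14420777-14420836 and the second at chr16:14473598-14473657 in mm9, and are shown because they carry this disagreement, with the longest run of A and G in capitals.
Abcc1, Ensembl transcript: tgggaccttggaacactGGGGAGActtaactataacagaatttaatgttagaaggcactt
Abcc1, RefSeq mRNA: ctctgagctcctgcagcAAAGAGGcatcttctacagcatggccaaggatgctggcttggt

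Abcc3, which exports glucuronides and bile salts, was at 2.26 in ALDH-high cells and 1.27 in ALDH-low cells at ZT12, and at 0.33 in ALDH-high cells and 2.16 in ALDH-low cells at ZT0. It was thus 3.54-fold lower in ALDH-high cells at ZT0 and just under 2-fold higher at ZT12, with a log2 difference of 0.99. A second probe had the same signs. Abcc4 exports cyclic nucleotides and prostaglandins, and ran the other way. It was at -1.26 in ALDH-high cells and -0.21 in ALDH-low cells at ZT12, and at -0.10 in ALDH-high cells and -1.13 in ALDH-low cells at ZT0, close to 2-fold in opposite directions. Abcc5, another exporter of cyclic nucleotides, was at -0.04 in ALDH-high cells and 0.77 in ALDH-low cells at ZT12, and at 1.30 in ALDH-high cells and 0.33 in ALDH-low cells at ZT0. Both of its differences, -0.81 and 0.96, fell short of 2-fold, and its 6 measured probes ranged from -1.03 to 0.84 at ZT12. Abcc10, a pump that confers taxane resistance, was at -1.49 in ALDH-high cells and -0.45 in ALDH-low cells at ZT12, and at -0.42 in ALDH-high cells and -0.96 in ALDH-low cells at ZT0. Its differences were -1.04 at ZT12 and 0.54 at ZT0.

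**Figure D2:**
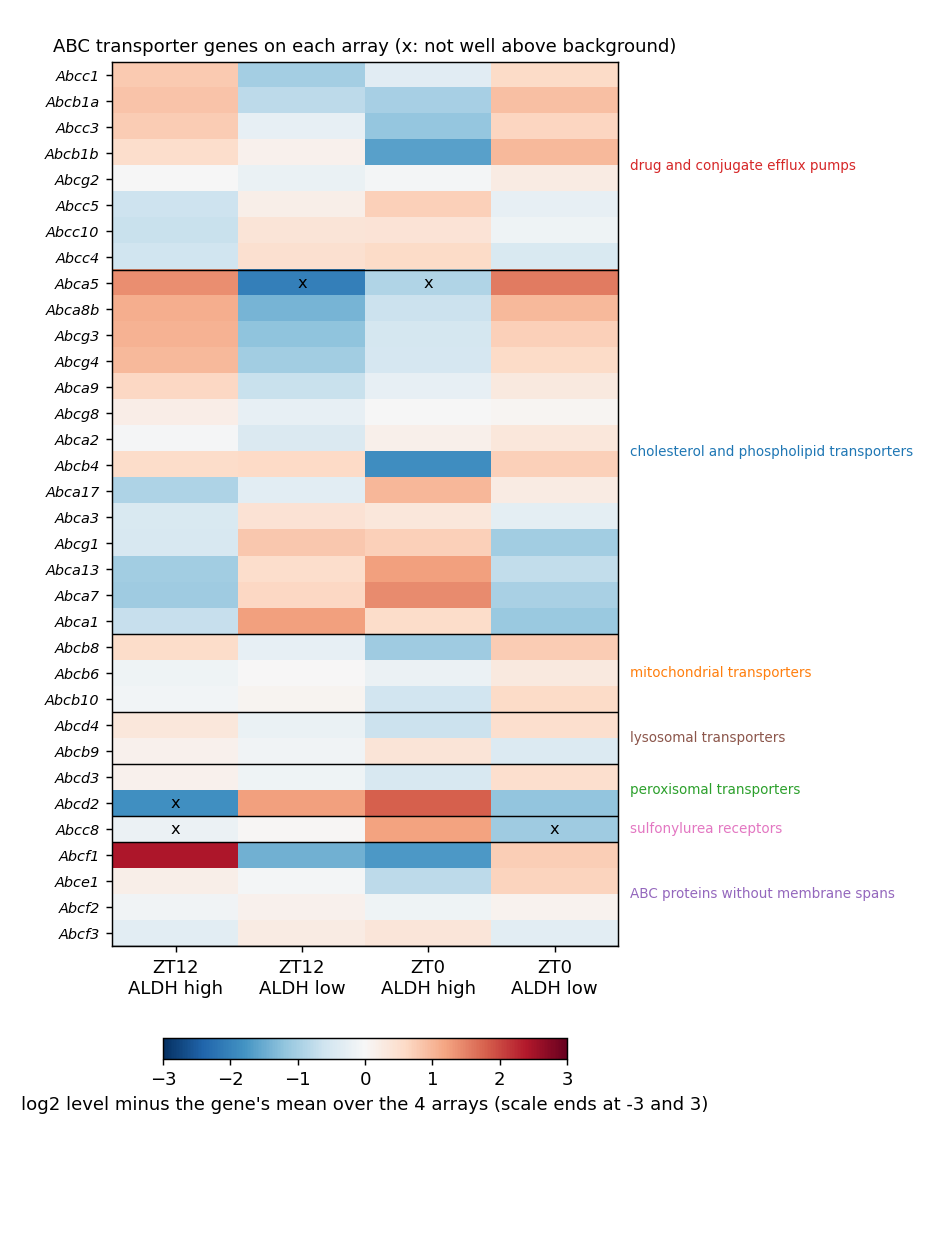
Measured ABC genes that are reported here (rows, grouped by role) on the 4 arrays (columns), each as its log2 level minus the mean of that gene over the 4 arrays; x marks an array on which the probe was not well above background. In most rows ALDH-high cells at ZT12 share their colour with ALDH-low cells at ZT0, and Abcb1b and Abcb4 are low on the ALDH-high array at ZT0 alone.

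Cholesterol and phospholipid transporters were the largest group, with 14 of 22 members measured. At ZT12, 5 were at least 2-fold higher and 4 lower in ALDH-high cells. At ZT0, 4 were higher and 5 lower. The shares over all features were 32.2% higher and 17.9% lower at ZT12, and 20.5% higher and 31.5% lower at ZT0. The 4 that were lower at ZT12, Abca1, Abca13, Abca7 and Abcg1, were also the 4 higher at ZT0, and over all features 3528 of the 4208 that were lower at ZT12 were higher at ZT0 as well.

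Abca1 hands cholesterol and phospholipid to lipid-poor apolipoprotein. It was at 0.96 in ALDH-high cells and 2.88 in ALDH-low cells at ZT12, and at 2.20 in ALDH-high cells and 0.54 in ALDH-low cells at ZT0. Abcg1 passes cholesterol on to high-density lipoprotein. Its level was 3.14 in ALDH-high cells and 4.43 in ALDH-low cells at ZT12, and 4.34 in ALDH-high cells and 2.58 in ALDH-low cells at ZT0. For both genes the arrays at position 1_2 were the high ones. The Abca1 differences were -1.92 at ZT12 and 1.67 at ZT0, and those of Abcg1 were -1.30 and 1.76. A second Abca1 probe gave -1.62 at ZT12 and 0.90 at ZT0.

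Abca7, a phospholipid transporter that also takes part in phagocytosis, was at 3.18 in ALDH-high cells and 4.89 in ALDH-low cells at ZT12, and at 5.67 in ALDH-high cells and 3.29 in ALDH-low cells at ZT0. It was 3.27-fold lower in ALDH-high cells at ZT12 and 5.21-fold higher at ZT0, with the same signs on a second probe. Abca13, the largest protein of the family, was at -0.56 in ALDH-high cells and 1.0 in ALDH-low cells at ZT12, and at 1.71 in ALDH-high cells and -0.27 in ALDH-low cells at ZT0. Its differences were -1.57 at ZT12 and 1.97 at ZT0. In ALDH-high cells 6 of 10 neutrophil markers were past 2-fold below ALDH-low cells at ZT12 and 2 were past 2-fold above them (Csf3r with 1.70 and S100a9 with 1.27), while 7 of 10 were past 2-fold above them at ZT0 and none below. The medians of the list were -1.97 and 3.36 and its summed level was higher in ALDH-high cells at both times. Csf3r and S100a9 were named after their values were seen. The part of neutrophil RNA in the values of these 4 genes was not tested.

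The opposite pattern was seen in Abca8b, Abcg3 and Abcg4. Abca8b was at -1.65 in ALDH-high cells and -4.15 in ALDH-low cells at ZT12, and at -3.40 in ALDH-high cells and -1.77 in ALDH-low cells at ZT0. These are levels of the brightest of its 3 probes, which is not on its RefSeq mRNA. Its other probes, the RefSeq one among them, were not well above background on any array. Abcg3, a rodent relative of Abcg2, was at -0.58 in ALDH-high cells and -2.82 in ALDH-low cells at ZT12, and at -2.15 in ALDH-high cells and -0.90 in ALDH-low cells at ZT0. In both genes the arrays at position 1_1 were the high ones. All 7 B-cell markers ran past 2-fold in these directions at both times, and so did 20.4% of all features. The same held for 9 of 10 T- and NK-cell, 6 of 7 red cell, 5 of 8 macrophage and 2 of 3 endothelial markers. Of 10 neutrophil markers 0 did, and 6 ran the reverse. The part of any of these cell types in the values of both genes was not tested.

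Abcg4, a sterol exporter known from the brain, depended on its probe. The brightest, on an Ensembl transcript, was at 2.79 in ALDH-high cells and 0.79 in ALDH-low cells at ZT12, and at 1.33 in ALDH-high cells and 2.41 in ALDH-low cells at ZT0. The probe on its RefSeq mRNA stayed between -3.20 and -2.69 on the 4 arrays, with differences of 0.12 at ZT12 and 0.51 at ZT0. The brightest probe (mm9, chr9:44087862-44087921, minus strand) shares a stretch of 21 bases with a probe of 1 other gene on the array, which differed by 1.78 at ZT12 and -1.15 at ZT0, close to the 2.0 and -1.08 of Abcg4. The shared bases are in capitals, and what the probe binds was not tested.
Abcg4, Ensembl transcript: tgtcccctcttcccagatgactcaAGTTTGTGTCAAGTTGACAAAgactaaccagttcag

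Abca5 was well above background only in ALDH-high cells at ZT12 and ALDH-low cells at ZT0. On its brightest probe, on an Ensembl transcript, it was thus at least 7.58-fold higher in ALDH-high cells at ZT12 and at least 5.47-fold lower at ZT0. None of its other probes, those on its RefSeq mRNA among them, was well above background on any array. Abca9 had differences of 1.29 at ZT12 and -0.53 at ZT0. Abca17 was at -2.60 in ALDH-high cells and -1.98 in ALDH-low cells at ZT12, and at -0.68 in ALDH-high cells and -1.43 in ALDH-low cells at ZT0, under 2-fold at each time. Abca2, a lipid transporter of endosomes and lysosomes, varied little, at -1.41 in ALDH-high cells and -1.82 in ALDH-low cells at ZT12, and at -1.23 in ALDH-high cells and -1.04 in ALDH-low cells at ZT0. Abca3, which loads surfactant lipid into lamellar bodies, and Abcg8, a sterol exporter of liver and intestine, stayed within 2-fold in every pair of arrays.

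Of the 3 measured mitochondrial members, 2 were at least 2-fold lower in ALDH-high cells at ZT0, against 31.5% of all features, and none passed 2-fold at ZT12, against 32.2% higher and 17.9% lower. Abcb10, an inner-membrane transporter that serves haem synthesis in red cell precursors, was at -1.49 in ALDH-high cells and -1.30 in ALDH-low cells at ZT12, and at -1.96 in ALDH-high cells and -0.82 in ALDH-low cells at ZT0. It was 2-fold lower only at ZT0, with a difference of -1.14, where the red cell list had a median of -8.39. At ZT12, where that list had a median of 6.41, Abcb10 differed by -0.18. The epithelial list had medians of 0.66 at ZT12 and -3.57 at ZT0. The part of red cell or epithelial RNA in the Abcb10 values was not tested. Abcb8, a mitochondrial transporter linked to iron balance, was at 0.38 in ALDH-high cells and -0.43 in ALDH-low cells at ZT12, and at -1.25 in ALDH-high cells and 0.58 in ALDH-low cells at ZT0. Abcb6, a porphyrin transporter, stayed within 2-fold in every pair of arrays.

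Peroxisomal members import fatty acids for breakdown. Abcd2 was at -3.80 in ALDH-high cells and -0.74 in ALDH-low cells at ZT12, the first of them not well above background. At ZT0 it was at -0.17 in ALDH-high cells and -3.14 in ALDH-low cells. On this probe it was at least 6.33-fold lower in ALDH-high cells at ZT12 and 7.81-fold higher at ZT0, the highest ZT0 difference among the 35 members. A second probe, well above background on 2 arrays, had the same signs, with -0.83 at ZT12 and 1.70 at ZT0 on the log2 scale. Abcd3 stayed within 2-fold.

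The lysosomal peptide transporter Abcb9 stayed within 2-fold, and Abcd4, which serves lysosomal cobalamin export, had differences of 0.54 at ZT12 and -1.14 at ZT0. Abcc8, the sulfonylurea receptor of insulin-secreting cells, was well above background in ALDH-low cells at ZT12 and ALDH-high cells at ZT0 alone. It was at least 1.74-fold higher in ALDH-high cells at ZT0, and is in the count of 8 by its measured difference of 2.27.

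Of the 4 members without membrane spans, Abce1, which recycles ribosomes, was at 1.18 in ALDH-high cells and 0.93 in ALDH-low cells at ZT12, and at 0.23 in ALDH-high cells and 1.67 in ALDH-low cells at ZT0. Its ZT0 difference was -1.45 and a second probe gave -1.50. Abcf2 was almost level, at 0.12 in ALDH-high cells and 0.36 in ALDH-low cells at ZT12, and at 0.10 in ALDH-high cells and 0.33 in ALDH-low cells at ZT0. Abcf3 stayed within 2-fold in every pair.

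Abcf1, a factor of translation initiation, had the widest spread of all members on its brightest probe. It was at 5.33 in ALDH-high cells and 1.47 in ALDH-low cells at ZT12, and at 1.19 in ALDH-high cells and 3.64 in ALDH-low cells at ZT0. That is 14.6-fold higher in ALDH-high cells at ZT12 and 5.44-fold lower at ZT0. Its 4 other probes, all well above background on all 4 arrays and all on the same RefSeq mRNA, disagreed. Their differences lay between -0.49 and 0.34 at ZT12 and between -0.61 and 0.25 at ZT0. The next brightest of them was at 2.52 in ALDH-high cells and 2.88 in ALDH-low cells at ZT12, and at 2.58 in ALDH-high cells and 2.84 in ALDH-low cells at ZT0.

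The brightest Abcf1 probe and 3 others are shown for what sets it apart, the longest run of A and G, in capitals. All map to the minus strand of chromosome 17 in mm9, the brightest to chr17:36100559-36100618. Positions are those in the files, which for some probes cover only part of the 60 bases or span more.
Abcf1, brightest: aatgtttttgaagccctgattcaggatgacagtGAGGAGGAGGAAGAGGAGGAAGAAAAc
Abcf1, chr17:36096443-36096502: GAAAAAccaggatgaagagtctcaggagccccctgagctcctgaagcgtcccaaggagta
Abcf1, chr17:36093707-36093739: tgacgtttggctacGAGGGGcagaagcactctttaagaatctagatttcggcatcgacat
Abcf1, chr17:36101243-36102038: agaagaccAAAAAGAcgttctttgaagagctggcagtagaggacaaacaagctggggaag

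The run is 26 bases long on the brightest probe, and a run of that length or more occurs on 50 of 56605 probes (0.0883%). This comparison was made after the values were seen. The 50 probes, all measured, had a median ALDH difference of 3.79 at ZT12 and -2.26 at ZT0, against 0.12 and -0.18 over 34574 measured probes. At least 2-fold higher at ZT12 and lower at ZT0 were 46 of the 50 (92%), against 17.9% of all measured probes. The median at ZT12 was 0.05 for probes with runs of up to 5 bases, 0.49 for runs of 10 to 14, 1.43 for runs of 15 to 19 and 3.08 for runs of 20 to 25. The other Abcf1 probes, with runs of 6 or 7 bases, lay near 0. Whether the brightest Abcf1 probe reads Abcf1 RNA was not tested.

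**Figure D3:**
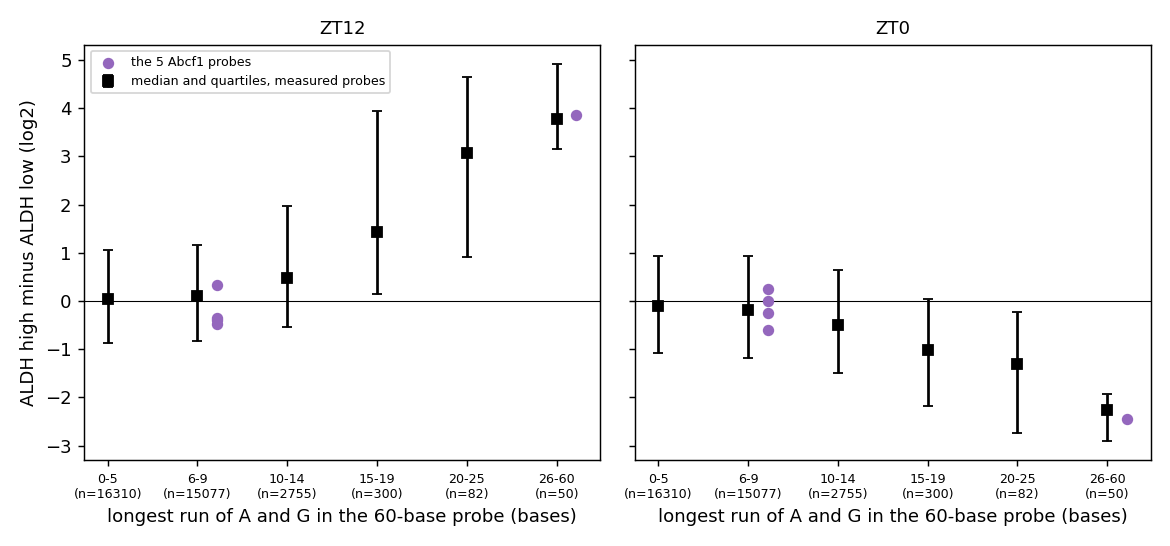
The ALDH difference (log2 of ALDH-high over ALDH-low cells) at ZT12 (left) and ZT0 (right) against the longest run of A and G in a probe, in bases; squares are medians and bars quartiles over the measured probes of each class, and purple points are the 5 Abcf1 probes. The brightest Abcf1 probe lies at 3.87 and -2.44 among the 50 probes with the longest runs, and the 4 others lie near 0.

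Of the 35 members, 15 had more than 1 measured probe. At ZT12 the probes of Abca3, Abcc1, Abcc5 and Abcf1 were among those that disagreed in sign, and at ZT0 those of Abca3, Abcf1 and Abcg4. Abca1, Abca13, Abca7, Abcb1a, Abcb8, Abcc3, Abcd2, Abce1 and Abcf3 kept their signs at both times on every measured probe.

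**Figure D4:**
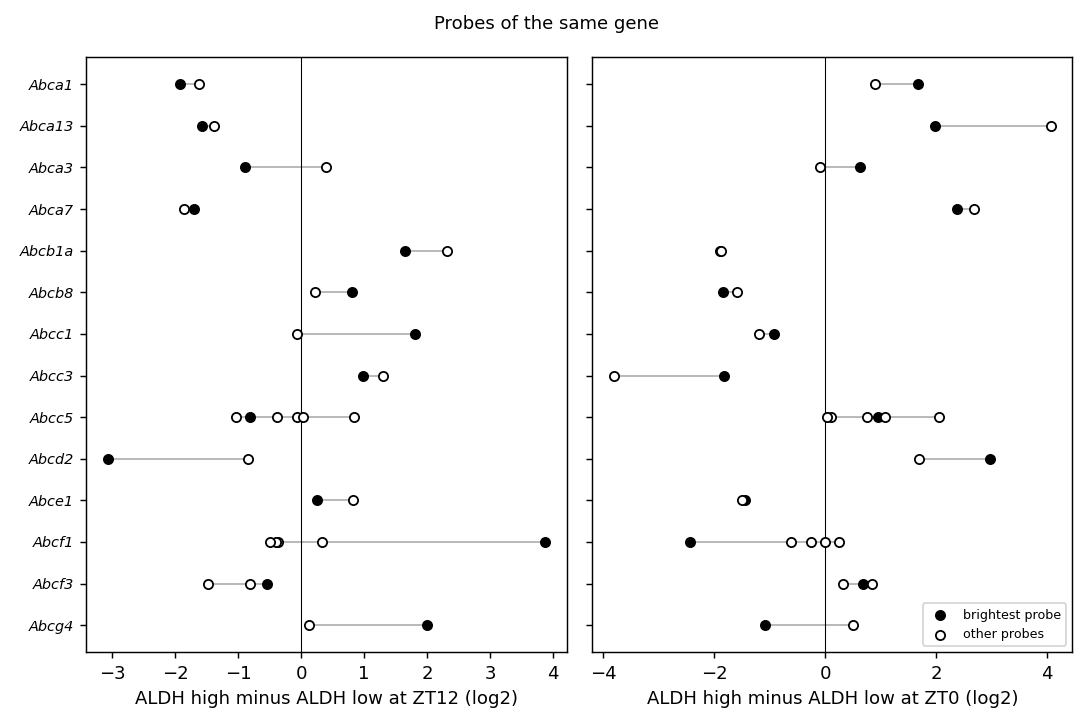
The ALDH difference (log2 of ALDH-high over ALDH-low cells) at ZT12 (left) and ZT0 (right) for every measured probe of ABC genes with more than 1 that are reported here (rows); filled points are the brightest probe, open points the others. Abcf1 has its brightest probe at 3.87 at ZT12 with the 4 others between -0.49 and 0.34.

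Between the times, ZT12 over ZT0, 11 of 35 ABC genes were at least 2-fold higher in ALDH-high cells, against 32.5% of all features, and 11 were at least 2-fold lower, against 20.8%. Their median was 0.04, and that of all features 0.33. In ALDH-low cells 6 were higher, against 17.5% of all features, and 8 were lower, against 32.7%. With arrays scaled to their medians the split was 9 higher and 13 lower in ALDH-high cells, and 13 higher and 4 lower in ALDH-low cells. No member was 2-fold higher at ZT12 in both arms (0.0383% of all features) or 2-fold lower in both (0.234%). Abca17, Abca2 and Abcf2 were the only members with the same sign of time difference in both arms as scaled to the 75th percentile, with -1.93, -0.19 and 0.02 in ALDH-high cells and -0.54, -0.78 and 0.04 in ALDH-low cells.

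Within a position, where arm and time change together, few members differed. At position 1_1, ALDH-high cells at ZT12 over ALDH-low cells at ZT0, 1 member was at least 2-fold higher (Abcf1, against 3.72% of all features) and 1 lower (Abca17, against 3.06%). Abcf1 is in that count by its brightest probe, and its 4 other probes lay between -0.32 and 0.02 in this pair. At position 1_2, ALDH-high cells at ZT0 over ALDH-low cells at ZT12, 4 of 35 were higher, Abca17, Abca5 and Abcc8 among them, against 14.4% of all features, and Abcb1b and Abcb4 were lower, which is 2 against 6.45%. Abca5 is in that count by its measured values, although it was not well above background on either array. The Abcb1b and Abcb4 differences there were -1.75 and -2.46. A total of 9 members stayed under 2-fold in all 6 pairs of arrays (Abca2, Abca3, Abcb6, Abcb9, Abcd3, Abcf2, Abcf3, Abcg2 and Abcg8), as did 29.4% of all features.

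**Figure D5:**
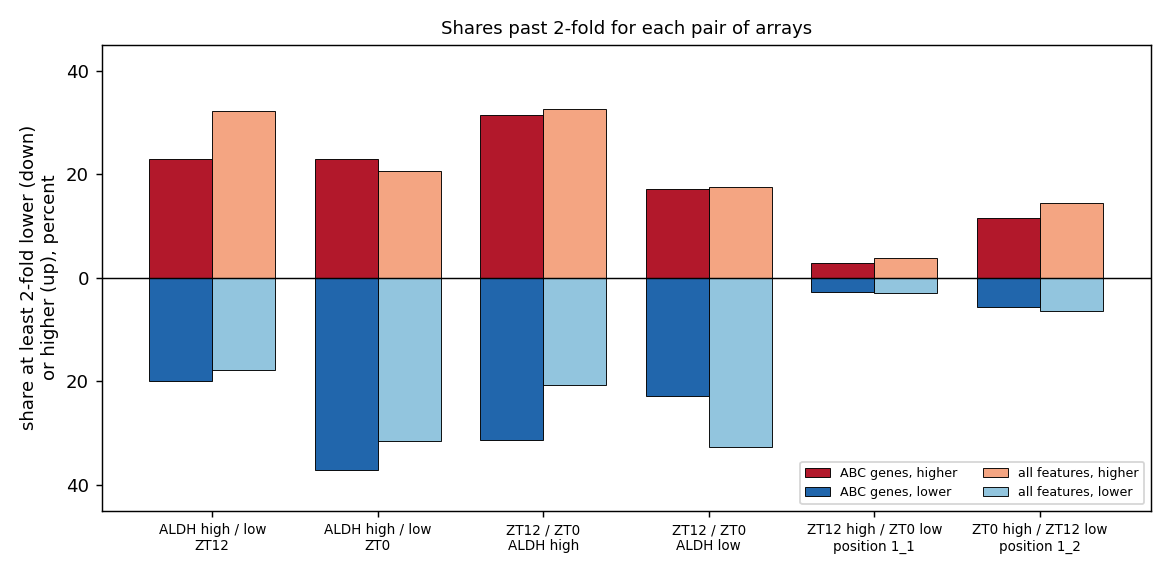
The share of the 35 ABC genes (dark bars) and of all 23520 features (light bars) that was at least 2-fold higher (up) or lower (down), in percent, for each of the 6 pairs of arrays. The shares are under 15% in the pairs that share an array position and larger in the others, for ABC genes and for all features.

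One additive fit over the 4 arrays, with arm and time as terms, left 1 residual degree of freedom. That residual is the change of the ALDH difference between the times, which is the same contrast as array position here. Since the arrays differed most along it, 0 calls say little about ALDH or time. With limma and Benjamini-Hochberg adjustment over 23520 features, two-sided, 0 features (0%) passed an adjusted p of 0.05 for ALDH, 7 had an unadjusted p under 0.05, and none of the 35 members had either. For time, 0 features (0%) passed, 2 had an unadjusted p under 0.05, and again no member did. With array position in place of time, 0 features passed for ALDH, while 1915 features and 2 of the 35 members had an unadjusted p under 0.05, and the smallest limma adjusted p of a member was 0.61. For time, with array position in place of arm, 0 features passed again, with 362 features and 1 member at an unadjusted p under 0.05. In the fit of arm and time, every gene shared 1 standard error of 1.54 log2 units. Abcb4 had the lowest fitted ALDH difference of the members, -1.31 (limma adjusted p = 1), the mean of -0.03 at ZT12 and -2.58 at ZT0. Abcc8 had the highest, 1.02.

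Genes that work with these transporters were read on the same arrays. The peptide transporters of antigen presentation, Tap1 and Tap2, which are ABC proteins under other symbols, were 2-fold higher in ALDH-high cells at ZT0, with 1.40 and 1.24, and differed by -0.41 and -0.57 at ZT12. Cftr, the ABC chloride channel, did not pass the filter. Of 11 genes of the LXR, RXR and cholesterol efflux list, 3 were at least 2-fold higher and 2 lower in ALDH-high cells at ZT12, and 3 were higher and 3 lower at ZT0, to be read against the shares of all features given above. Nr1h2, an oxysterol receptor that drives Abca1 and Abcg1 transcription, differed by -0.95 at ZT12 and 1.58 at ZT0, the signs of Abca1. Its relative Nr1h3 differed by 1.16 and -1.62, the opposite signs. Signs that turn between the times were seen for 84.2% of all features, and a part of either receptor in the Abca1 and Abcg1 values was not tested. Of 12 genes of glutathione supply and conjugation, which feeds the Abcc pumps, 2 were higher and 5 lower at ZT12, and 5 were higher and 3 lower at ZT0. The shares of all features were 32.2% and 17.9% at ZT12, and 20.5% and 31.5% at ZT0. Lower at ZT12 and higher at ZT0 were 5 of the 12, Mgst1 with -2.22 and 2.98 among them, against 15% of all features. The reverse was seen for 2, against 20.4%.

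Promoters of 26 of the 35 members were in the RefSeq table of build GRCm38.p6, each as 250 bases before to 50 after the start of a gene. The E-box CACGTG, the letters that the clock factors CLOCK and BMAL bind, was searched on both strands, where it reads the same. It was present in 4 of the 33 promoters of these members, those of Abca1, Abca8b, Abcc4 and Abcf1, and in 7.15% of 32851 promoters. Of these 4, Abca1 and Abcc4 were lower in ALDH-high cells at ZT12 and higher at ZT0, and Abca8b and Abcf1 the reverse on their brightest probes. The 4 other Abcf1 probes stayed under 2-fold at both times, and the other Abca8b probes were not well above background on any array. The GC box GGGCGG was found in 20 of the 33 and in 35.7% of all promoters, the CCAAT box in 11 and in 37.4%, and TGACNNNGC, letters of the antioxidant element, in 6 and in 12.4%. A match is a description of letters. The promoters of Abca1 (chr4:53159846-53160145, minus strand) and Abca8b (chr11:109995796-109996095, minus strand) are shown as one gene of each direction, with the E-box in capitals.
Abca1: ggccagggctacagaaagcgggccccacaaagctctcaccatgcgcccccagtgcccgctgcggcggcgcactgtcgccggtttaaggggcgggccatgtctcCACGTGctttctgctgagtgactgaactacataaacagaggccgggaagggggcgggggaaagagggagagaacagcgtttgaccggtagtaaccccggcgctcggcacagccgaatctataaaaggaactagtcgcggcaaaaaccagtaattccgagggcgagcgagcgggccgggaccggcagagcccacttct
Abca8b: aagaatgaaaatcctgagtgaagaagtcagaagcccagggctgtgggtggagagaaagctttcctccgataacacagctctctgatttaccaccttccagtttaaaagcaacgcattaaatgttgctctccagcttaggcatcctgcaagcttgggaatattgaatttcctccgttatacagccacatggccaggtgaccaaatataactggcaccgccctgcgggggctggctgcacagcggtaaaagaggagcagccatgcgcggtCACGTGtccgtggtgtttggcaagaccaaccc

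Among the 15 members that did not pass the filter were Abca4, Abca6, Abca8a, Abca12, Abca14, Abca15, Abca16 and Abcg5 among the lipid transporters, Abcb5, Abcc2, Abcc6 and Abcc12 among the efflux pumps, and the bile salt exporter Abcb11 and the sulfonylurea receptor Abcc9. Abcb11 was well above background on 1 array, ALDH-low cells at ZT12, and Abcc2 on 1, ALDH-high cells at ZT12. The other 13 were not well above background on any array.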

How the data were processed

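RNA of 4 sorted samples was measured on 1-colour Agilent arrays of 60-base probes. Per the file headers, the deposited processed signal is a background-subtracted, detrended intensity on a linear scale, made with Feature Extraction 10.7.1.1, while the submitters' processing notes name version 9.5.1.1. The deposited series table also holds intensity values, which the authors had quantile normalized, as its equal column medians of 28.3 show. The flag columns, deposited beside them, mark spots well above background. Other columns of unknown samples numbered 0.

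Control and outlier spots were left out, and replicate spots of a probe were averaged as log2 values. The 75th percentile of each array was subtracted, over 59305 spots that were not controls. Of 56605 probes, 34574 were well above background on 2 or more arrays, and the brightest stood for each gene name. Gene names come from the array design. Of the 35 measured members, 31 had an accession found in the RefSeq table of GRCm38.p6, all with the same symbol. Positions are mm9 as in the files, and exon, intron or UTR positions were not analysed here.

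With 1 array a group, differences were counted at 2-fold without a test. A probe not well above background on 1 array of a pair has a bound, the brighter level over the higher of its own dim level and the lowest level well above background on that array. The additive fit used limma 3.58.1 in R 4.3.3 and was tested on simulated data. The p-values of the fit with arm and time are set against the change of the ALDH difference between the times, which is array position here. With array position as the second term, ALDH is set against the time difference, and time against the ALDH difference. None of them measures a spread between replicates. The rest ran in Python 3.11.15, with pandas 2.3.3 for tables, numpy 2.4.6 for arithmetic and matplotlib 3.10.9 for plots. Alternatives were normexp background correction (offset 50) with quantile normalization, quantile normalization alone, median scaling, the series table, other filters, the mean of probes, array position as a term, each array left out and, added after the values were seen, the brightest probe on a RefSeq mRNA.

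Some genes are counted but not reported by name here. The members and gene lists were chosen with earlier results of these data known, and Abcb5 joined the efflux list after the files were read. Members named with every array were 11 drug, lipid and organelle transporters fixed by name, the 6 highest and 6 lowest differences at each time among members well above background on both arrays of the pair, and those with time differences of 1 sign in both arms.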

Additional observations from a re-analysis of the deposited data

Results flagged for a closer look

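For 10 members well above background on all 4 arrays, the ALDH difference passed 2-fold in opposite directions at the times. The difference between the times was not tested, since each group has 1 array, and 20.4% of all features were likewise past 2-fold higher at ZT12 and lower at ZT0, and 15% the reverse. The ALDH difference at ZT12 minus that at ZT0, on the log2 scale, was 6.31 for Abcf1, 4.12 for Abca8b, 3.54 for Abcb1a, 3.49 for Abcg3 and 3.09 for Abcg4. It was -4.09 for Abca7, -3.59 for Abca1, -3.54 for Abca13, -3.06 for Abcg1 and -2.08 for Abcc4. The Abcf1 and Abcg4 values rest on the brightest probe of each gene, with which the others disagreed. The Abca8b and Abcg3 values also rest on the brightest probe, and the other probes of these genes were not well above background on any array. Abcc4 and Abcg1 had 1 probe each.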

How the results depend on the processing

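No additive fit of all 4 arrays called a member under any alternative. The residual of these fits is a difference between arms, times or positions and not a spread between replicates, so this says little about the members. Fits with an array left out leave 1 array in a group and are not read here. No member passed 2-fold in the same direction at both times under the 8 alternatives tried for counts. Of 482 recomputed differences of named members that passed 2-fold, 478 kept their sign. The 4 that turned used the brightest probe on a RefSeq mRNA, an alternative added after the values were seen, under which Abcg4 differed by 0.51 at ZT0 and by 0.28 (ALDH-low) and -0.11 (ALDH-high) between the times, and Abcc1 by -0.0709 at ZT12. That alternative kept 33 members, without Abca5 and Abca8b, which had no measured probe on a RefSeq mRNA, so no Abca8b difference was recomputed there. Abcd2 was likewise left out under the filter that asked for all 4 arrays. With the RefSeq probes 4 members were higher at ZT12. Between the times 7 were higher at ZT12 in ALDH-high cells and 4 lower in ALDH-low cells. The ZT12 median was -0.0709, against -0.11 over all features.

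With normexp and quantile normalization, 5 members were higher and 4 lower in ALDH-high cells at ZT12, with a median of -0.0457. Between the times 7 were higher and 5 lower in ALDH-high cells, with a median of -0.00555, and 4 were lower in ALDH-low cells, while 7 in place of 12 reversed past 2-fold. Quantile normalization alone turned the medians to -0.0668 at ZT12 and -0.0958 between the times in ALDH-high cells. The authors' series table gave -0.0689 and -0.101. Over all features the ZT12 median was 0.04 with normexp and quantile, 0.09 with quantile alone and 0.09 with the series table. Between the times in ALDH-high cells it was 0.07, 0.17 and 0.17 in the same order. Median scaling gave 5 higher, 15 lower and a median of -0.69 at ZT12, 14 higher, 8 lower and 0.18 at ZT0, 13 higher, 4 lower and 0.38 between the times in ALDH-low cells, and a median of -0.49 in ALDH-high cells. By its construction it adds 1 constant to every gene of a pair. Without a filter, over 50 members, 17 were higher at ZT12, 20 higher at ZT12 than at ZT0 in ALDH-high cells and 16 lower in ALDH-low cells. Without it the median over all features was 0.999 at ZT12, and between the times 0.82 in ALDH-high cells and -0.92 in ALDH-low cells. Shares of all features past 2-fold were not recomputed under the alternatives, so these counts have no share to be read against. For the other changes the cause was not tested. Of 72 recomputed counts whose reported count was above 0, 18 moved past 1.5 times it and 54 did not.

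No paired analysis was possible because each group has 1 array and the replicate number is 1 in all of them. Time already stands for the slide in the fit, and array position as the other term called 0 members. Without replicates, no difference here has a spread between tumours to be read against, and arm, position, time and slide overlap as described.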
